A study of Mus musculus with 16 samples.

Results

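The 10 genes described here are Bach1, Nfe2l2 (which encodes NRF2) and 8 genes known as their antioxidant and iron-handling targets: Hmox1, Nqo1, Gclc, Gclm, Txnrd1, Slc7a11, Fth1 and Ftl1. They were chosen by name, and all 10 of 10 were found among the 23179 genes of the expression table and passed the filter on low values, which kept 21218 genes. The RNA-Seq libraries, 16 in all and 4 in each of 4 groups, were made from mammary adipose tissue of the tumor-free side of female wild-type C57BL/6N mice. CON-LFD mice received the low-fat control diet throughout. Mice made obese on a diet of 60% fat (diet-induced obesity, DIO) stayed on it (DIO-HFD), were switched to low-fat feeding (DIO-LFD), or had vertical sleeve gastrectomy, the surgical removal of part of the stomach, together with the low-fat diet (DIO-VSG). The CON-LFD, DIO-HFD and DIO-LFD mice had a sham operation. All mice, controls included, were injected with E0771 mouse mammary cancer cells in the 4th mammary fat pad 22 weeks after being randomized to diet, so each group carried a tumor elsewhere. DIO-VSG mice differed from DIO-HFD mice in both operation and diet, and these cannot be told apart in that comparison.

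NRF2 is a transcription factor that is held at a low protein level by KEAP1, an adaptor that hands it to the CUL3 ubiquitin ligase, and is released when cells meet oxidants or electrophiles. It then pairs with a small MAF protein and binds antioxidant response elements. BACH1 pairs with the same small MAF proteins, occupies the same kind of element as a repressor, and leaves it when it binds heme. The targets make glutathione (Gclc, Gclm and Slc7a11), reduce thioredoxin and quinones (Txnrd1, Nqo1), break down heme (Hmox1) and store the iron that heme releases (Fth1, Ftl1). Since both factors are controlled largely at the protein, their mRNA levels, which are what was measured here, do not measure their activity.

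DNA stretches that match the letters of elements of 2 layers of control are shown first. The promoter sequences of RefSeq (GRCm38.p6), which cover 250 bases before to 50 after each annotated start, were searched on both strands for TGACNNNGC, the core of the antioxidant response element. Of 32851 promoters, 12.4% held it. The 8 members with an entry had 11 promoters, and 3 of these held a match, 1 each at Nfe2l2, Gclm and Txnrd1. They are printed on the strand of the gene, with the matched bases in capitals, and at Gclm and Txnrd1 the match reads on the opposite strand.
Nfe2l2, chr2:75704885-75704913, minus strand, starting 240 bases before the start: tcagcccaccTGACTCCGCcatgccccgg
Gclm, chr3:122245413-122245441, plus strand, starting 134 bases before the start: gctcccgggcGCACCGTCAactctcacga
Txnrd1, chr10:82859104-82859132, plus strand, starting 92 bases before the start: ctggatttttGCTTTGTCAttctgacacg
A second form, TGANTCA, which is the core of the element that BACH1 and AP-1 factors can bind, was in 0 of the 11 promoters and in 7.81% of all. Such a match is a description of letters and not a bound site, and known elements of these genes can lie outside this window. Gclc and Hmox1 had no entry.

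The ferritin mRNAs carry the other layer, the iron-responsive element, a hairpin that iron regulatory proteins bind to block translation when iron is scarce. Its letters (C, 5 bases, CAGTGN and the reverse complement of those 5 bases) were looked for in the 5′ UTRs of GENCODE M21 on GRCm38. They were in 12 of 20883 genes with a 5′ UTR, or 0.0575%, and in 2 of the 10 members. Capitals mark the hairpin, and Slc40a1, the iron exporter ferroportin, is added because its level is described below.
Fth1, chr19:9982733-9982759, plus strand: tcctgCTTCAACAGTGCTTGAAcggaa
Ftl1, chr7:45459780-45459806, minus strand: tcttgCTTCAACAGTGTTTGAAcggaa
Slc40a1, chr1:45925466-45925492, minus strand: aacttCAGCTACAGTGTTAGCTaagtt
Control at this element acts on translation, which mRNA counts do not show.

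The libraries held between 46907377 and 57610899 reads. Values are normalized counts, which are reads divided by the size factor of the library. Differences between groups are log2 differences of (normalized count + 1), tested with limma in 1 fit of the 16 libraries, with Benjamini-Hochberg adjustment over the 21218 genes and a threshold of 0.05. Folds are those of the fit, on this log2 scale, and not ratios of the arithmetic means. Adipocyte markers (summed normalized counts of 8 markers from 476050 to 1618900) were present in every library, above the sum of each other marker list, so the tissue label held. Libraries stood apart in their lymphocytes. The summed level of 6 T cell markers ran from 614 to 19259 in CON-LFD, from 454 to 27301 in DIO-HFD, from 5260 to 10617 in DIO-LFD and from 16659 to 24074 in DIO-VSG. One library, DIO-LFD replicate 1, also had a summed level of 5 erythroid markers of 461510, against 18104 to 55718 in the other 15 libraries. DIO-LFD replicate 4 stood apart in 6 skeletal muscle markers (summed level 123550, at most 28038 elsewhere), and DIO-HFD replicate 4 in 5 keratinocyte markers (10233, at most 579 elsewhere). In a bulk tissue, fewer cells of a type and less RNA per cell cannot be told apart.

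The 10 genes spanned a wide range of levels. Per kilobase of the longest coding transcript, the ferritin light chain gene Ftl1 had the highest mean over the 16 libraries (46113 normalized counts per kb), followed by the heavy chain gene Fth1 (43228 normalized counts per kb), and their ranges over libraries overlapped. Nfe2l2 followed at 1874 normalized counts per kb, with no overlap with Fth1. The means of Hmox1 (1240), Gclc (1179), Txnrd1 (1088), Bach1 (530), Gclm (407), Nqo1 (194) and Slc7a11 (53.9 normalized counts per kb) came next, and each neighbour in this order overlapped the one before it in range. Slc7a11 was thus the lowest of the 10 per length and Nfe2l2 the highest outside the ferritins.

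**Figure D1:**
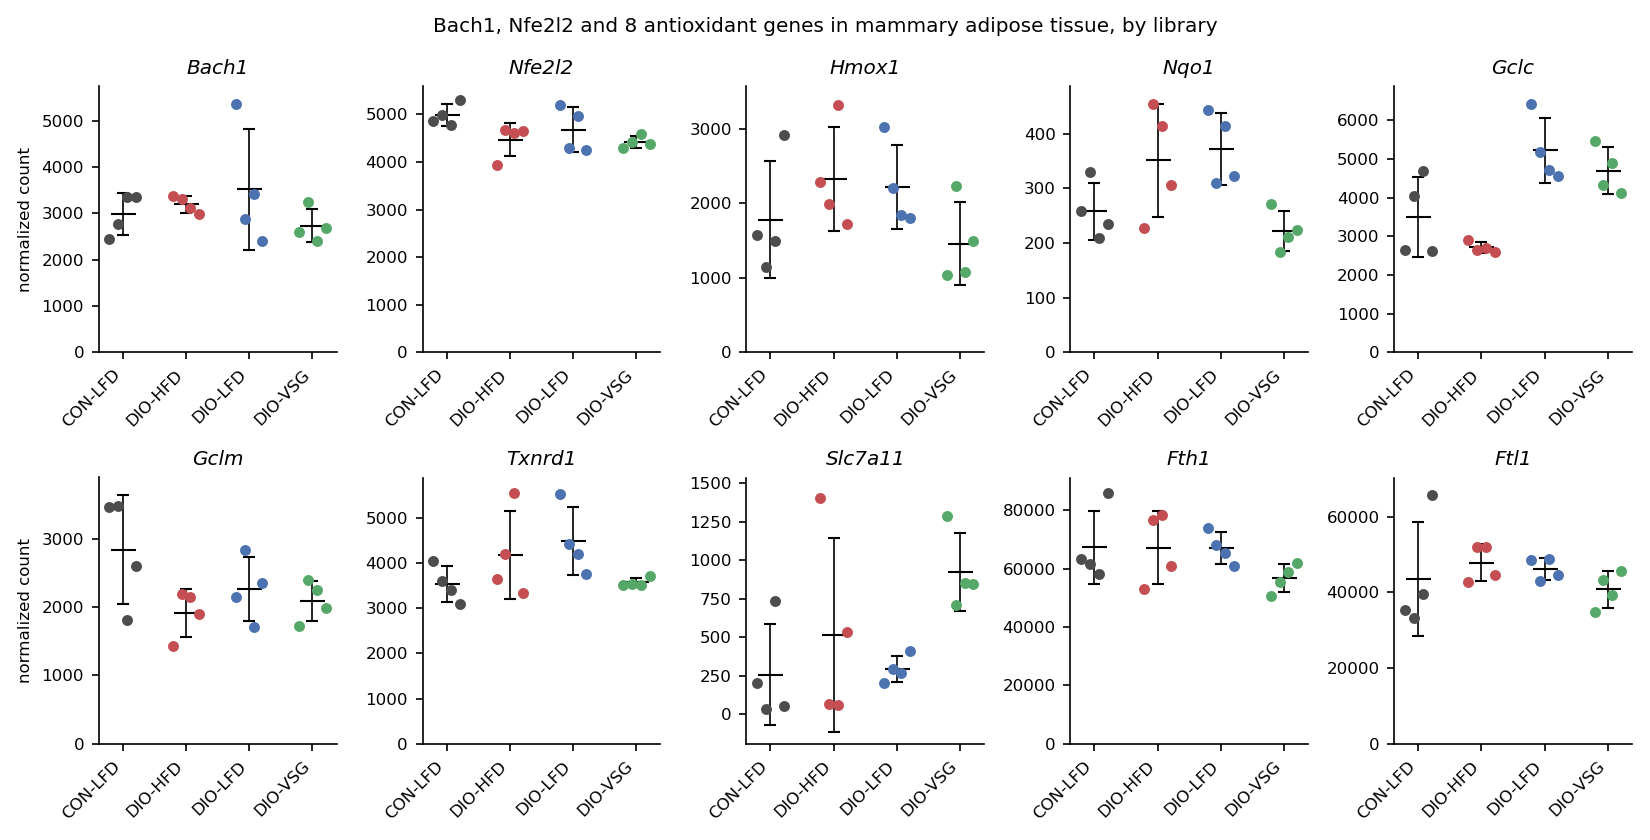
Normalized count (linear vertical axis) of each of the 10 genes in the 4 libraries of each group (horizontal axis, replicates 1 to 4 from left to right). Points are libraries, short lines are means and bars are SD, and Gclc separates DIO-HFD (2597 to 2907 normalized counts) from DIO-LFD and DIO-VSG (4115 to 6427 normalized counts).

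Across the 6 pairwise comparisons of the groups, none of the 60 tests of a member reached an adjusted P value of 0.05 with limma, and none of the 10 genes passed the F test for any difference among the 4 groups. In the whole table, the shares of genes past that threshold were 0.0377% (8 genes) for DIO-HFD versus CON-LFD, 0.00471% (1 gene) for DIO-LFD versus CON-LFD and 0% for the other 4 comparisons and for the F test. At an unadjusted P value below 0.05, 2 members were seen in the F test (Gclc and Nqo1), against 12.7% of all genes. The pattern that stood highest among the members was that of Gclc. Its limma adjusted P values of 0.243 for DIO-VSG versus DIO-HFD and 0.296 for DIO-LFD versus DIO-HFD were tied with those of other genes. In the first, 135 genes had that adjusted P value, and in the second 42. By unadjusted P value Gclc ranked 32 in the first and 6 in the second of the 21218 genes.

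Gclc (chr9:77754535-77794485, GRCm38) encodes the catalytic subunit of glutamate-cysteine ligase, the enzyme of the rate-limiting step of glutathione synthesis. Its normalized counts in DIO-HFD replicates 1 to 4 were 2907, 2647, 2712 and 2597. In DIO-LFD they were 6427, 5183, 4723 and 4560, and in DIO-VSG 5471, 4328, 4888 and 4115. All 8 libraries of the formerly obese mice thus lay above all 4 DIO-HFD libraries. In CON-LFD the counts were 2659, 4049, 4694 and 2621, so that replicates 1 and 4 sat at the level of DIO-HFD and replicates 2 and 3 near that of DIO-VSG. The level was 1.91-fold higher in DIO-LFD than in DIO-HFD on the log2 scale of the fit, a log2 difference of 0.93 ± 0.18 (SE) with a 95% confidence interval of 0.55 to 1.31 and an unadjusted limma P value of 0.00011. For DIO-VSG versus DIO-HFD the log2 difference was 0.78 ± 0.18 (SE), a 1.72-fold higher level with an interval of 0.41 to 1.16 and an unadjusted limma P value of 0.000534. Both comparisons share the DIO-HFD libraries. Leaving out any 1 library kept the log2 difference between 0.83 and 0.99 for DIO-LFD and between 0.71 and 0.84 for DIO-VSG. Library weights, estimated from how far each library lies from its group, gave limma adjusted P values of 0.00235 and 0.00147. That fit called 8.54% and 17.6% of all genes. Over all alternatives tried, the limma adjusted P values ran from 0.00235 to 0.757 and from 0.00147 to 0.621.

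Between the 2 weight loss groups, Gclc differed by -0.15 on the log2 scale (DIO-VSG minus DIO-LFD, limma adjusted P = 0.705), with an interval of -0.53 to 0.23 that lay on both sides of 0. Relative to CON-LFD its fitted level was 1.53-fold higher in DIO-LFD (log2 difference 0.61, limma adjusted P = 0.513) and 1.38-fold higher in DIO-VSG (0.46, limma adjusted P = 0.268), with overlapping libraries in both. Relative to CON-LFD, DIO-HFD was lower by a log2 difference of -0.32 (interval -0.70 to 0.06, limma adjusted P = 0.462). Fibroblast markers moved against Gclc. Over the 16 libraries, which share the tissue dissection and 1 normalization, Pearson's r of Gclc was -0.69 with the fibroblast marker score (Spearman's rho -0.66) and -0.83 after the group means were subtracted. It was 0.41 with the T cell score and -0.36 with the macrophage score. The summed level of 4 fibroblast markers ran from 78054 to 129120 in DIO-HFD, from 41113 to 152740 in DIO-LFD and from 48360 to 98310 in DIO-VSG, and its part in the Gclc difference was not tested. With the T cell score as a covariate, the log2 differences were 0.91 for DIO-LFD and 0.73 for DIO-VSG versus DIO-HFD.

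Gclm (chr3:122245557-122270732) encodes the modifier subunit, which binds the catalytic subunit and raises its efficiency. It lies over Gm6061, a pseudogene on the same strand that shares 244 of its 492 exon bases with Gclm exons and was listed at a mean of 3326 normalized counts (1429 to 5518). Reads of the shared bases could be given to either gene, so the Gclm values are uncertain. Its normalized counts were 3466, 3471, 1813 and 2603 in CON-LFD, 1431, 2188, 2152 and 1894 in DIO-HFD, 2150, 2828, 1710 and 2358 in DIO-LFD, and 1727, 2390, 2253 and 1989 in DIO-VSG. CON-LFD held the 2 highest libraries, replicates 1 and 2, and every pair of groups overlapped. DIO-HFD was lower than CON-LFD by a log2 difference of -0.54 ± 0.21 (SE) (interval -0.998 to -0.078, limma adjusted P = 0.316), the one member with an unadjusted P value below 0.05 in this comparison, in which 12.9% of all genes had one and 7.66% were lower. Marker levels of other cells moved with Gclm, with a Pearson's r of 0.64 for the thermogenic adipocyte score, 0.58 for mammary epithelium and -0.54 for T cells. The summed level of 4 thermogenic markers was 185 to 702 in DIO-HFD and 1672 to 45009 in CON-LFD, without overlap, and its part in the Gclm difference was not tested. With the T cell score as a covariate that difference was -0.49. Across the 16 libraries the 2 subunit genes had a Pearson's r of -0.10. The ratio of Gclc to Gclm normalized counts was 1.38 ± 0.82 in CON-LFD, 1.47 ± 0.38 in DIO-HFD, 2.38 ± 0.58 in DIO-LFD and 2.30 ± 0.60 in DIO-VSG (mean ± SD, n = 4 each). DIO-HFD replicate 1, at 2.03, overlapped the weight loss groups, as did CON-LFD replicate 3, at 2.59.

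Slc7a11 (chr3:49892526-50443614) encodes xCT, the light chain of the cystine-glutamate exchanger, which imports cystine for glutathione synthesis. It was the most variable of the 10 genes, with a highest level 41.4-fold above the lowest and an SD on the log2 scale larger than that of 96.0% of the tested genes. The normalized counts were 205, 33.9, 733 and 51.2 in CON-LFD and 1403, 67.5, 57.8 and 534 in DIO-HFD. They were 205, 294, 269 and 412 in DIO-LFD and 1287, 709, 853 and 843 in DIO-VSG. DIO-VSG libraries all lay above all DIO-LFD libraries, and CON-LFD and DIO-HFD each held libraries near the bottom and near the level of DIO-VSG. On the log2 scale of the fit, DIO-VSG was 3.14-fold higher than DIO-LFD (log2 difference 1.65 ± 1.00 (SE), interval -0.49 to 3.79, limma adjusted P = 0.534). Relative to CON-LFD the fitted fold was 6.99 (2.80, interval 0.66 to 4.95, limma adjusted P = 0.268), and relative to DIO-HFD it was 3.84 (1.94, interval -0.20 to 4.08, limma adjusted P = 0.394). The last log2 difference ran from 1.28 without DIO-HFD replicate 3 to 2.80 without DIO-HFD replicate 1.

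The lymphocyte content of the libraries moved with Slc7a11 more closely than with any other member. Pearson's r with the T cell marker score was 0.98 (Spearman's rho 0.97) over the 16 libraries, 0.99 without the 2 libraries farthest from the median score and 0.98 after the group means were subtracted. For the B cell score r was 0.95 and for the adipocyte score -0.81. The 2 DIO-HFD libraries with low Slc7a11, replicates 2 and 3, had summed T cell marker levels of 1352 and 454, and the 2 with high Slc7a11, replicates 1 and 4, had 27301 and 12945. In CON-LFD, replicates 2 and 4, low in Slc7a11, had summed T cell levels of 614 and 1111, and replicate 3, high in Slc7a11, had 19259. With the T cell score as a covariate, the log2 difference of Slc7a11 was 0.57 for DIO-VSG versus CON-LFD (limma adjusted P = 0.914), 0.07 versus DIO-HFD and 0.52 versus DIO-LFD (limma adjusted P = 0.702). The difference from CON-LFD also depended on single libraries, with values of 2.18 without CON-LFD replicate 2 and 3.64 without CON-LFD replicate 3. In the latter case the limma adjusted P value was 0.0497, where 4.11% of all genes were called, in a range of 0.0202 to 0.914 over all alternatives. Fitting the 2 weight loss groups alone gave a limma adjusted P value of 0.0139 for their difference of 1.65, in a fit that called 7.22% of all genes, and the alternatives ran up to 0.796.

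**Figure D2:**
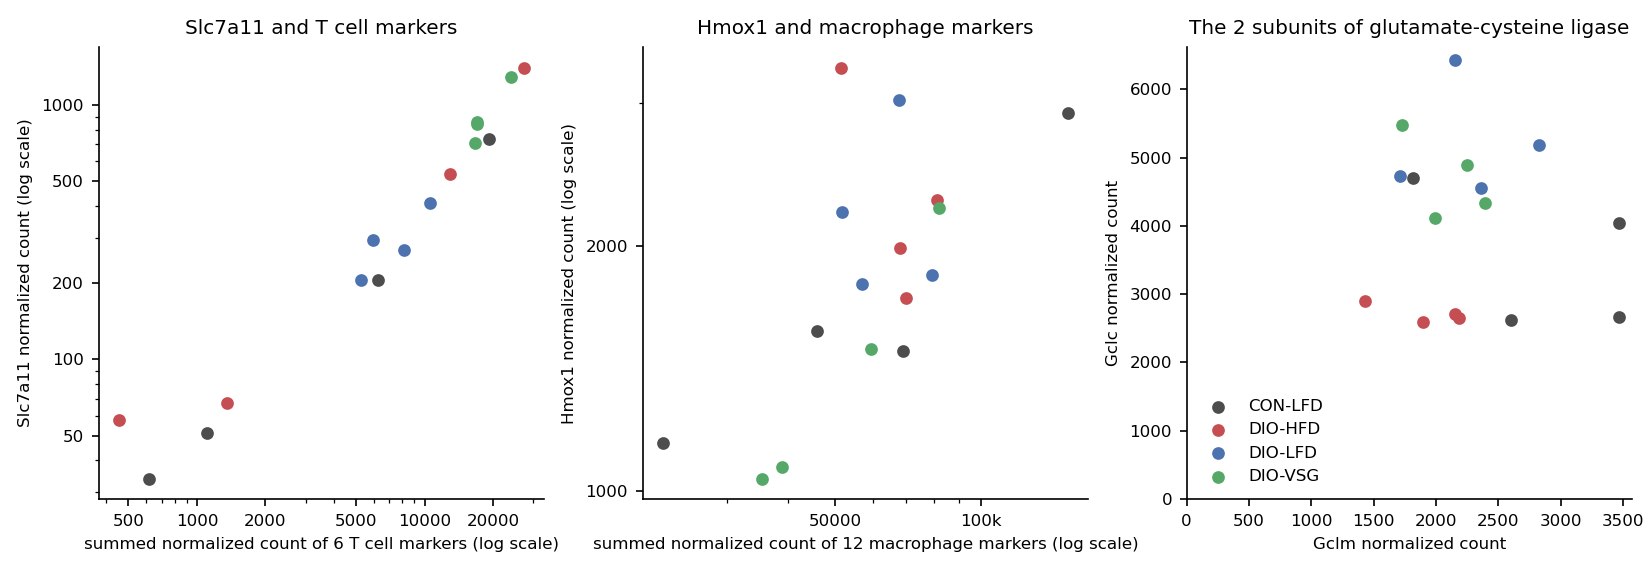
Each point is 1 library, coloured by group. Left, Slc7a11 against the summed level of 6 T cell markers (both log axes, normalized counts), which follow each other across the groups with r of 0.98 for the marker score. Middle, Hmox1 against 12 macrophage markers (both log axes, r of 0.79 for the score). Right, Gclc against Gclm (linear axes), where the 4 DIO-HFD libraries lie below 2907 normalized counts of Gclc.

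Txnrd1 (chr10:82833951-82897712) encodes cytosolic thioredoxin reductase, the selenoprotein that keeps thioredoxin reduced. Its normalized counts were 4051, 3598, 3410 and 3096 in CON-LFD, 3639, 4198, 5540 and 3337 in DIO-HFD, 5531, 4430, 4191 and 3760 in DIO-LFD, and 3506, 3543, 3521 and 3719 in DIO-VSG. The 4 DIO-VSG libraries were close together (CV 2.76%) and all lay just below the lowest DIO-LFD library. Their log2 difference was -0.31 ± 0.15 (SE) (interval -0.63 to 0.01, limma adjusted P = 0.510). Between DIO-LFD and CON-LFD it was 0.33 (interval 0.01 to 0.65, limma adjusted P = 0.779), with overlap.

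Nqo1 (chr8:107388225-107403206) encodes a quinone reductase that is widely used as a readout of NRF2. Its normalized counts were 258, 331, 208 and 235 in CON-LFD and 228, 455, 415 and 306 in DIO-HFD. They were 443, 309, 414 and 323 in DIO-LFD and 271, 183, 211 and 224 in DIO-VSG. DIO-VSG thus had the lowest mean and lay wholly below DIO-LFD. The log2 difference between them was -0.74 ± 0.22 (SE), a 1.67-fold higher level in DIO-LFD, with an interval of -1.21 to -0.26 and a limma adjusted P value of 0.509, and a fit of those 2 groups alone, which called 7.22% of all genes, gave 0.0391, in a range up to 0.796 over the alternatives. Relative to DIO-HFD, which DIO-VSG overlapped through DIO-HFD replicate 1, the difference was -0.62 (interval -1.09 to -0.15, limma adjusted P = 0.305, which ran from 0.0231 with library weights to 0.627 over the alternatives). T cell markers moved against Nqo1, with an r of -0.55 for the score and of -0.68 after the group means were subtracted. The adipocyte score moved with Nqo1, with an r of 0.64 and of 0.77 after that subtraction. The part of adipocyte content in the Nqo1 differences was not tested. With the T cell score as a covariate the difference from DIO-HFD was -0.35 (limma adjusted P = 0.569) and that from DIO-LFD -0.57 (limma adjusted P = 0.630). DIO-LFD was 1.44-fold above CON-LFD (0.53, interval 0.06 to 1.00, limma adjusted P = 0.745).

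The endothelial marker score moved with both genes, with a Pearson's r of 0.78 for Nqo1 and 0.77 for Txnrd1 over the 16 libraries, and Nqo1 and Txnrd1 had an r of 0.71 with each other. The summed level of 4 endothelial markers was 32945 to 33821 in DIO-VSG, 32325 to 72765 in DIO-LFD, 38375 to 62256 in DIO-HFD and 31879 to 43250 in CON-LFD. Its part in the lower levels of Nqo1 and Txnrd1 in DIO-VSG than in DIO-LFD was not tested. For Txnrd1 the relation weakened to 0.33 without the 2 libraries farthest from the median score, while for Nqo1 it was 0.71.

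Hmox1 (chr8:75093621-75100589) encodes heme oxygenase 1, which splits heme into biliverdin, carbon monoxide and iron and is a well-known gene under BACH1 repression. Its normalized counts were 1575, 1146, 1488 and 2916 in CON-LFD and 2278, 1988, 3314 and 1727 in DIO-HFD. They were 3020, 2202, 1844 and 1799 in DIO-LFD and 1037, 2228, 1073 and 1494 in DIO-VSG. DIO-VSG held 2 of the 3 lowest libraries, but its replicate 2 lay within the range of each other group. The fitted level of DIO-HFD was 1.63-fold that of DIO-VSG, a log2 difference of -0.70 ± 0.31 (SE) for DIO-VSG minus DIO-HFD (interval -1.36 to -0.04, limma adjusted P = 0.361). With the T cell score as a covariate it was -0.51. The other 5 comparisons lay between -0.64 and 0.43.

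Hmox1 followed the macrophage content of the libraries. Its r with the score of 12 macrophage markers was 0.79 (rho 0.71), and 0.76 after the group means were subtracted. The summed macrophage level was 35445, 81858, 39000 and 59328 in DIO-VSG replicates 1 to 4, and Hmox1 had the same order in those libraries. In DIO-HFD it ran from 51578 to 81269, and the library with the highest Hmox1 of all, DIO-HFD replicate 3, had the lowest macrophage level of its group. Its part in the Hmox1 difference was not tested. The 3 tested genes whose levels were most like Hmox1, of 15655 ranked by Pearson's r over the 16 libraries, were Slc10a3 (0.941), Ccl9, a chemokine (0.919) and Grn, the lysosomal progranulin (0.915).

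The ferritin genes Fth1 (chr19:9980598-9985098) and Ftl1 (chr7:45457944-45459884) encode the subunits of the iron storage shell, of which the heavy chain oxidizes iron as it enters. Fth1 ranged from 58285 to 85922 normalized counts in CON-LFD, from 53033 to 78496 in DIO-HFD, from 60924 to 74015 in DIO-LFD and from 50718 to 61882 in DIO-VSG. Ftl1 ranged from 33363 to 65807 in CON-LFD, from 42840 to 52099 in DIO-HFD, from 42929 to 48973 in DIO-LFD and from 34757 to 45785 in DIO-VSG. All groups overlapped for both genes. CON-LFD replicate 4, which had the highest summed macrophage level (150750), had the highest level of both. DIO-VSG had the lowest mean of both, with log2 differences from -0.24 to -0.23 for Fth1 against the other groups and from -0.23 to -0.05 for Ftl1 (limma adjusted P of 0.399 or more). The intervals of these 6 differences reached from -0.62 to 0.34, which covers both lower and slightly higher levels.

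The ferritin genes had an r of 0.77 with each other, and Ftl1 had an r of 0.77 with Hmox1 and of 0.85 with the macrophage score. Fth1 went with the adipocyte score (r = 0.81) and against the T cell score (r = -0.78) and Slc7a11 (r = -0.80). These r values describe 16 mixed-tissue libraries that differ in cell content. Reads of ferritin pseudogenes were few where listed, at 0.818% of the Ftl1 mean for Ftl2-ps and 0.0265% of the Fth1 mean for Fth-ps2, though other copies may share reads with the parent genes and the ferritin values are uncertain to that degree.

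Bach1 (chr16:87698945-87733346) itself showed little difference between groups. Its normalized counts were 2447, 2773, 3353 and 3363 in CON-LFD and 3372, 3319, 3115 and 2978 in DIO-HFD. They were 5370, 2869, 3417 and 2408 in DIO-LFD and 2600, 3239, 2401 and 2688 in DIO-VSG. All groups overlapped, and 1 library, DIO-LFD replicate 1, was far above the other 15. The largest log2 difference was -0.31 for DIO-VSG versus DIO-LFD (interval -0.72 to 0.11, limma adjusted P = 0.546). Without 1 library it ran from -0.46 to -0.08. The log2 difference was -0.23 ± 0.20 (SE) for DIO-VSG versus DIO-HFD (interval -0.65 to 0.19, limma adjusted P = 0.543), 0.11 for DIO-HFD versus CON-LFD and 0.07 for DIO-LFD versus DIO-HFD. The last of these was -0.15 without DIO-LFD replicate 1, the library with the high erythroid level. In that library the endothelial sum (72765) was also the highest of all, and the part of either in its Bach1 level was not tested.

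Nfe2l2 (chr2:75675513-75704641) was the steadiest of the 10 genes, with an SD on the log2 scale above that of 5.31% of the tested genes. Its normalized counts were 4868, 4989, 4781 and 5311 in CON-LFD and 3943, 4678, 4612 and 4643 in DIO-HFD. They were 5195, 4298, 4968 and 4245 in DIO-LFD and 4288, 4419, 4587 and 4383 in DIO-VSG. All CON-LFD libraries lay above all those of DIO-HFD and of DIO-VSG, while DIO-LFD overlapped CON-LFD. The gaps were small. The log2 difference from CON-LFD was -0.16 ± 0.08 (SE) in DIO-HFD (interval -0.34 to 0.02, limma adjusted P = 0.433) and -0.17 ± 0.08 (SE) in DIO-VSG (interval -0.35 to 0.00, limma adjusted P = 0.285), and these comparisons share the CON-LFD libraries. Without DIO-HFD replicate 1, the lowest library, the difference of DIO-HFD from CON-LFD was -0.10. Between DIO-VSG and DIO-HFD the difference was -0.01 (interval -0.19 to 0.16). One of the 10 members (Nfe2l2) was lower without overlap in each comparison. Of all genes, 3% were so in DIO-HFD versus CON-LFD (4.76% in either direction) and 4.43% in DIO-VSG versus CON-LFD (7.02% in either direction).

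The ratio of Bach1 to Nfe2l2 normalized counts was 0.598 ± 0.087 in CON-LFD, 0.720 ± 0.094 in DIO-HFD, 0.739 ± 0.203 in DIO-LFD and 0.619 ± 0.086 in DIO-VSG (mean ± SD, n = 4 each), and the libraries of each pair of groups overlapped. Over the 16 libraries, Bach1 had an r of 0.64 with Hmox1, its repressed target, and of 0.60 with the macrophage score, and Nfe2l2 had an r of 0.31 with Nqo1 and of 0.71 with the adipocyte score. The r of Bach1 with the 8 targets ran from -0.29 for Gclm to 0.64 for Hmox1, and was below 0 for Gclm and Slc7a11 (-0.19). The genes most like Bach1 were Pgm3 (0.888), an enzyme of amino sugar synthesis, Tmem170b (0.882) and N4bp1 (0.874), and without the 2 libraries farthest from the median of Bach1 these were 0.65 to 0.71. Those most like Nfe2l2 were Stau1, an RNA-binding protein (0.862), Sqrdl, a mitochondrial sulfide oxidase (0.850) and Podn, a proteoglycan (0.842).

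**Figure D3:**
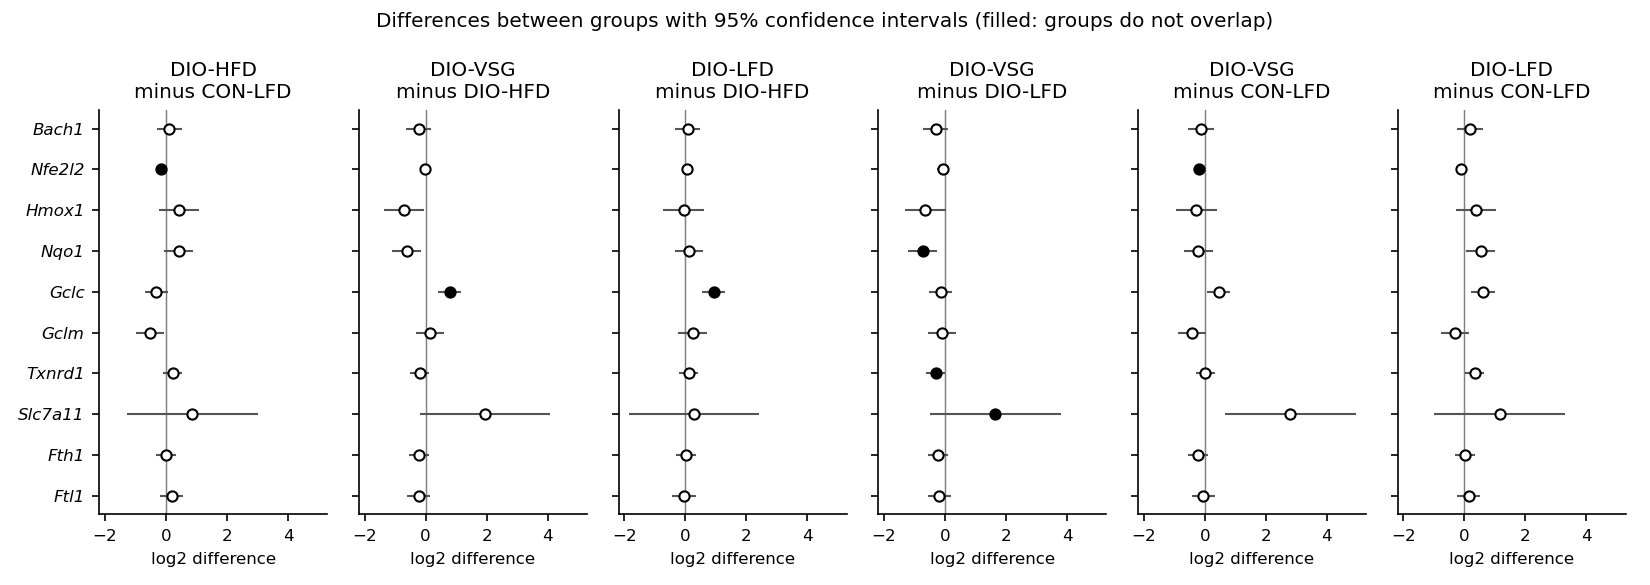
Log2 difference (horizontal axis) of each gene (vertical axis) in each of the 6 comparisons, as the first group minus the second. Lines are 95% confidence intervals and filled points mark groups whose libraries do not overlap. Gclc lies to the right in both comparisons of weight loss with DIO-HFD, and the intervals of Slc7a11 are the widest.

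Counted by comparison, the members stood as follows. For DIO-VSG versus DIO-HFD, 1 member was higher (Gclc) and 2 were lower (Hmox1, Nqo1) at an unadjusted limma P value below 0.05, where the table as a whole had 5.05% of genes higher and 8.12% lower, or 13.2% in all. The groups did not overlap for 1 member (Gclc, higher), where 2.37% of all genes were higher without overlap and 6.59% in either direction. With the T cell score as a covariate, 1 (Gclc) of these 3 members kept an unadjusted P value below 0.05, against 10.1% of all genes. For DIO-LFD versus DIO-HFD, 1 member was higher (Gclc), against 5.37% of all genes that were higher and 8.53% in either direction. Again 1 was higher without overlap, against 3.01%, or 4.51% in either direction. The median log2 difference of the 10 members was -0.21 for DIO-VSG and 0.09 for DIO-LFD versus DIO-HFD, beside medians over all tested genes of 0.02 and 0.01. For DIO-HFD versus CON-LFD it was 0.15, beside 0.02. The count at an unadjusted P value below 0.05 in that comparison went from 1 member (Gclm) to 4 (Gclm, Ftl1, Hmox1, Gclc) without CON-LFD replicate 4. The share of all genes was 12.9% in the main fit and 12.4% without that library.

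Surgical was then compared with dietary weight loss. Of 10 members, 9 had a mean log2 value below that of DIO-LFD in DIO-VSG, as did 52.7% of all genes, and the exception was Slc7a11. Gclm and Ftl1 turned sign under alternatives. The median was -0.21, beside -0.02 over all tested genes. At an unadjusted limma P value below 0.05 there was 1 member (Nqo1, lower), against 5.41% of all genes that were lower and 9.71% in either direction. This count was 2 or 3 without 1 of 5 other libraries, in fits where 8.6% to 11.9% of all genes passed. It was 4 (Hmox1, Nqo1, Txnrd1, Bach1) without DIO-LFD replicate 4, which was high in muscle markers, against 7.95% of all genes. The groups did not overlap for 3 members, Nqo1 and Txnrd1 lower and Slc7a11 higher in DIO-VSG, where 5.83% of all genes were lower and 12.9% higher without overlap, or 18.8% in all. Versus CON-LFD, 2 members were higher in DIO-VSG at that threshold (Gclc, Slc7a11), against 10.2% of all genes that were higher and 17.8% in either direction. One of them was left without CON-LFD replicate 1, 2 or 4 or DIO-VSG replicate 1, where 8.95% to 12.3% of all genes passed. In DIO-LFD, 3 were higher (Nqo1, Gclc, Txnrd1), against 3.23% and 6.26%. That count was 1 (Gclc) without DIO-LFD replicate 1, which was high in erythroid markers, against 5.69% of all genes in either direction. With DIO-LFD, 0 members failed to overlap CON-LFD, against 3.53% of all genes.

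Of 75 other genes of these pathways, 73 passed the filter (Gpx2 did not, and Flvcr1 was not listed in the table), and 0 passed an adjusted P value of 0.05 with limma in any of the 6 comparisons. At an unadjusted P value below 0.05, 4 were higher and 12 lower in DIO-HFD versus CON-LFD, where 12.9% of all genes passed in either direction. For DIO-VSG versus DIO-HFD, 6 were higher and 9 lower, against 13.2%. For DIO-LFD versus DIO-HFD, 14 were higher and 4 lower, against 8.53%, and for DIO-VSG versus DIO-LFD, 0 and 7, against 9.71%. The same shares of all genes are the background of each list count that follows. The lists below were described by such counts and by medians, which are no tests of a list.

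Among the 10 regulators, the mRNA of Keap1, which holds NRF2 down, had means of 3035 ± 72 in CON-LFD, 2893 ± 151 in DIO-HFD, 3153 ± 97 in DIO-LFD and 3021 ± 146 in DIO-VSG (normalized counts, SD, n = 4 each). Mafk, one of the small MAF partners, had a mean of 3156 ± 1290 in DIO-HFD and of 1807 ± 324 in CON-LFD (log2 difference 0.74, limma adjusted P = 0.378) and of 1839 ± 218 in DIO-VSG (-0.70 versus DIO-HFD, limma adjusted P = 0.387). Maff, another, differed by 0.53 between DIO-HFD and CON-LFD and by 0.27 between DIO-LFD and DIO-HFD. Bach2, the lymphoid relative of Bach1, had libraries from 449 to 5965 in DIO-HFD and from 4317 to 5105 normalized counts in DIO-VSG (log2 difference 1.39, limma adjusted P = 0.402), and DIO-LFD was 0.40 above DIO-HFD. At an unadjusted P value below 0.05, Mafk was higher in DIO-HFD versus CON-LFD and Rbx1, a subunit of the CUL3 ligase, was higher in DIO-LFD versus DIO-HFD, and for DIO-VSG versus DIO-HFD there were 0 of 10.

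Among the genes of heme and iron handling, Slc40a1, the iron exporter and a gene under NRF2 and BACH1 control, had normalized counts from 1502 to 2209 in DIO-HFD, from 722 to 926 in CON-LFD, from 412 to 1158 in DIO-LFD and from 728 to 1306 in DIO-VSG. DIO-HFD lay above every library of the other 3 groups. The log2 difference was 1.08 for DIO-HFD versus CON-LFD (interval 0.48 to 1.67, limma adjusted P = 0.191), -1.11 for DIO-LFD versus DIO-HFD (-1.71 to -0.52, limma adjusted P = 0.320) and -0.96 for DIO-VSG versus DIO-HFD (-1.55 to -0.37, limma adjusted P = 0.259), and the 3 share the DIO-HFD libraries. Trf, which encodes the iron carrier transferrin, had a mean of 115430 ± 45533 in DIO-LFD and 53272 ± 23161 in DIO-HFD (1.15, limma adjusted P = 0.435). Hpx, the heme carrier hemopexin, differed by 0.90 in DIO-HFD versus CON-LFD and by -0.98 in DIO-VSG versus DIO-HFD. Of 14 tested genes of the heme and iron list, 3 were higher and 3 lower in DIO-HFD versus CON-LFD at an unadjusted P value below 0.05. Slc40a1 was the 1 such gene in DIO-VSG versus DIO-HFD, and 2 higher (Trf, Cp) and 1 lower (Slc40a1) were seen in DIO-LFD versus DIO-HFD.

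In the thioredoxin, peroxiredoxin and superoxide dismutase list, 13 of 16 genes had a lower mean in DIO-HFD than in CON-LFD (47.3% of all genes) and 13 of 16 a higher mean in DIO-LFD than in DIO-HFD (51.6% of all genes). Those with an unadjusted P value below 0.05 were Txn2, Prdx3, Sod1, Sod2 and Cat, all lower, in the first, and Txn2, Prdx3 and Sod1 higher and Prdx4 lower in the second. Cat, which encodes the peroxisomal catalase, had means of 56298 ± 14067 in CON-LFD and 31228 ± 8698 in DIO-HFD, without overlap (log2 difference -0.87, limma adjusted P = 0.186). Prdx3, the mitochondrial peroxiredoxin, was 0.65 higher in DIO-LFD than in DIO-HFD without overlap (limma adjusted P = 0.450). Sod3, the extracellular superoxide dismutase, was 0.72 higher in DIO-HFD than in CON-LFD, and relative to DIO-HFD it was -0.73 in DIO-LFD and -1.33 in DIO-VSG (limma adjusted P = 0.288 for the last). Prdx4, a peroxiredoxin of the endoplasmic reticulum, was -0.41 in DIO-VSG versus DIO-HFD without overlap (limma adjusted P = 0.274). Relative to DIO-LFD, all 16 had a lower mean in DIO-VSG, as did 52.7% of all genes, and 1 of them (Txnrd3) had an unadjusted P value below 0.05, against 9.71%.

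Among the glutathione genes outside the members, Gpx3, the plasma glutathione peroxidase, had a mean of 64604 ± 14660 in DIO-LFD against 29112 ± 18051 in DIO-HFD (log2 difference 1.38, limma adjusted P = 0.523). Gpx8 differed by -0.69 and Glrx by 0.45 in DIO-HFD versus CON-LFD, Gpx8 by 0.57 in DIO-LFD versus DIO-HFD, and Gpx7 by -0.79 and Gpx1 by -0.35 in DIO-VSG versus DIO-HFD. Of 9 tested genes, 0 had an unadjusted P value below 0.05 in DIO-HFD versus CON-LFD, 2 in DIO-VSG (lower) and 2 in DIO-LFD (higher) versus DIO-HFD. Among 18 detoxification genes, Gsta4, a glutathione transferase for lipid aldehydes, had a mean of 502 ± 201 in DIO-HFD against 1114 ± 368 in CON-LFD, 1001 ± 298 in DIO-LFD and 1059 ± 241 in DIO-VSG (log2 differences -1.18, 1.02 and 1.13, limma adjusted P of 0.215, 0.456 and 0.257). Gsta4 in DIO-HFD did not overlap CON-LFD or DIO-VSG. Gsta2 differed by 1.89 in DIO-VSG versus DIO-HFD, and Aldh3a1 by 0.60 in DIO-HFD versus CON-LFD and by -1.67 in DIO-LFD versus DIO-HFD. Of the 18, 1 was lower in DIO-HFD versus CON-LFD at an unadjusted P value below 0.05, 3 were higher and 4 lower in DIO-VSG, and 2 higher and 2 lower in DIO-LFD versus DIO-HFD.

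The NADPH list holds 6 genes, not all of which make NADPH themselves. It had the largest list medians of log2 difference in the 3 comparisons with DIO-HFD. These were -0.46 in DIO-HFD versus CON-LFD, 0.80 in DIO-LFD and 0.48 in DIO-VSG versus DIO-HFD. Me1, malic enzyme, differed by -1.52, 1.89 and 2.04 in the same order. Tkt, transketolase, differed by -1.41, 1.83 and 1.90, with limma adjusted P of 0.259 or more for both genes. At an unadjusted P value below 0.05, 3 of the 6 were lower in DIO-HFD versus CON-LFD, and 3 in DIO-VSG and 4 in DIO-LFD were higher versus DIO-HFD. For Tkt, DIO-HFD did not overlap CON-LFD or DIO-VSG. Malic enzyme also supplies NADPH to fatty acid synthesis in adipocytes. Over the 16 libraries, the r of Tkt and Me1 was 0.32 and 0.24 with Gclc, and 0.52 and 0.59 with Gclm. After the group means were subtracted, it was -0.69 with Gclc for both, and 0.58 and 0.68 with Gclm. Within groups the 2 subunit genes thus stood on opposite sides of Tkt and Me1. With Gclc and Gclm in turn, r after this subtraction was -0.68 and 0.35 for Pgd and -0.43 and 0.80 for Taldo1. It was -0.25 and 0.22 for G6pdx, and -0.58 and 0.03 for Idh1.

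**Figure D4:**
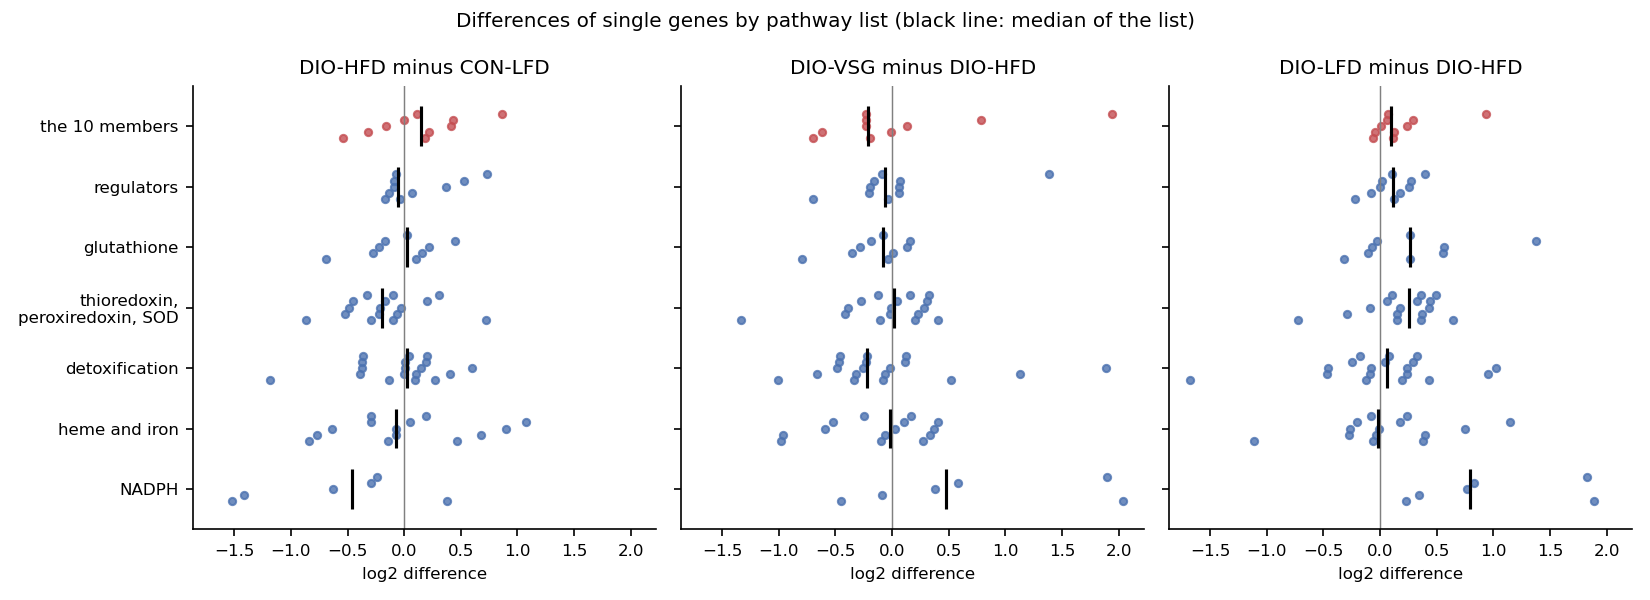
Log2 difference (horizontal axis) of single genes in the 10 members (red) and 6 other lists (blue), as the first group minus the second, for the 3 comparisons with DIO-HFD. Each point is 1 gene and black lines are list medians, which for the NADPH list are -0.46, 0.48 and 0.80 from left to right.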

How the data were processed

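Total RNA was profiled in 16 libraries, whose group and replicate number come from the sample titles. Per the study's methods, the authors aligned stranded total RNA reads with STAR, estimated abundances with salmon against a Gencode annotation (release not stated), removed genes with few counts and normalized with DESeq2. The submitters' processing notes instead name TopHat2 2.0.7 and HTSeq 0.5.3p9, and how far this bears on the values was not tested. The deposited values were log2 values from the authors' variance-stabilizing transformation (5.36 to 21.85), although described as normalized counts. The transformation was inverted, which gave whole reads for 100.0% of values (within 0.01 of a whole number) and library size factors of 0.9036 to 1.2204. The design had assumed normalized counts, and these recovered values were used. The number of value columns without a sample was 0.

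limma-trend (limma 3.58.1, R 4.3.3) was fitted to log2(normalized count + 1), which understates changes of low genes, with group as the only term. A gene was tested (two-sided) if 4 or more libraries held 10 or more normalized counts of it. All 10 members are named. Of each other pathway list the 2 genes with the largest difference in each comparison with DIO-HFD are named, and Keap1 and, for an unadjusted P value below 0.05, Rbx1, Txn2, Sod1, Sod2, Txnrd3 and Cp were added after their values were seen. A marker score is the mean over markers of the log2 value minus its mean over libraries. Members and lists were chosen with earlier results of these data known. The fit was tried on simulated counts with the same spread for all genes and no differences in cell content. That trial does not show how the fit does on these tissue libraries.

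Animal numbers in the labels show each library as a separate mouse. Replicates of a group had a chi-square of at least 64.4 per gene, so none was 1 library present under 2 names. Gene positions are from GENCODE M21 on GRCm38, where Gclm overlaps Gm6061 on its own strand (mean 3326 normalized counts) and Gm17494 on the opposite strand (mean 47.9), and whether counting used strand was not stated. Alternatives were upper-quartile and quantile scaling, a pseudocount of 5, the values as deposited, no filter, a minimum of 50, voom on whole reads, library weights, only the 2 groups, a replicate block and leaving out each library. A T cell score as covariate was added after the data were seen.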

Additional observations from a re-analysis of the deposited data

Results flagged for a closer look

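Among 40 sets of 4 libraries (10 genes in 4 groups), 1 library was set apart from the rest of its group by Dixon's gap criterion. Nfe2l2 in DIO-HFD replicate 1 was at 3943 normalized counts, against 4612 to 4678 in the other 3 libraries, a gap of 0.918 of the group's range. About 1 in 20 such groups would be marked by chance. That library had the highest summed T cell marker level of all (27301) and the lowest summed adipocyte marker level (476050), and their part in its Nfe2l2 level was not tested. Without it, the log2 difference of Nfe2l2 between DIO-VSG and DIO-HFD was -0.07, and that between DIO-HFD and CON-LFD was -0.10.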

How the results depend on the processing

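Members past an adjusted P value of 0.05 with limma were 0 in all 7 tests under upper-quartile and quantile scaling, a pseudocount of 5, the values as deposited, no filter, a minimum of 50, voom, the replicate block and the T cell score as a covariate. With library weights, which ran from 0.222 to 10.924, there were 1 for DIO-HFD versus CON-LFD (Gclm, against 19.8% of all genes), 2 for DIO-VSG versus DIO-HFD (Gclc, Nqo1, against 17.6%), 1 for DIO-LFD versus DIO-HFD (Gclc, against 8.54%), 3 for DIO-VSG versus CON-LFD (Gclc, Gclm, Slc7a11, against 19.9%) and 4 in the F test (Gclc, Gclm, Nqo1, Slc7a11, against 34.8%). A fit of DIO-VSG and DIO-LFD alone gave 2 (Nqo1, Slc7a11), against 7.22% of all genes (1533). Without 1 library, DIO-VSG versus CON-LFD gave 0 to 2, with 2 (Gclc, Slc7a11) without CON-LFD replicate 3, where 4.11% of all genes (873) were called. The cause was not tested.

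Of 60 member differences, 43 kept their direction under every alternative. Those that turned were mostly small. The log2 difference became, under quantile normalization, 0.00156 for Nfe2l2 in DIO-VSG versus DIO-HFD, 0.0461 for Fth1 in DIO-HFD versus CON-LFD, -0.0517 for Fth1 in DIO-LFD versus DIO-HFD, -0.00562 for Fth1 in DIO-LFD versus CON-LFD, 0.011 for Ftl1 in DIO-VSG versus DIO-LFD and 0.169 for Ftl1 in DIO-VSG versus CON-LFD. It became, with the T cell marker score as a covariate, 0.0504 for Nfe2l2 in DIO-VSG versus DIO-HFD, 0.0171 for Hmox1 in DIO-LFD versus DIO-HFD, 0.117 for Nqo1 in DIO-VSG versus CON-LFD, 0.0431 for Gclm in DIO-VSG versus DIO-LFD, -0.445 for Slc7a11 in DIO-LFD versus DIO-HFD, 0.0348 for Fth1 in DIO-HFD versus CON-LFD, 0.0982 for Ftl1 in DIO-VSG versus CON-LFD. It became, under library weights, 0.17 for Hmox1 in DIO-LFD versus DIO-HFD, -0.143 for Txnrd1 in DIO-HFD versus CON-LFD, 0.0687 for Txnrd1 in DIO-VSG versus DIO-HFD, -0.0747 for Txnrd1 in DIO-VSG versus CON-LFD, -0.699 for Slc7a11 in DIO-LFD versus DIO-HFD, -0.00185 for Fth1 in DIO-LFD versus CON-LFD, 0.0401 for Ftl1 in DIO-LFD versus DIO-HFD, 0.0591 for Ftl1 in DIO-VSG versus CON-LFD. It became, under voom on whole reads, 0.00331 for Fth1 in DIO-HFD versus CON-LFD. It became, under upper-quartile scaling, -0.0041 for Fth1 in DIO-LFD versus DIO-HFD, -0.0168 for Fth1 in DIO-LFD versus CON-LFD.

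Without 1 library, the values that turned ran from -0.154 to 0.232 for Bach1 in DIO-LFD versus DIO-HFD, -0.0442 to 0.341 for Bach1 in DIO-LFD versus CON-LFD, -0.0722 to 0.010 for Nfe2l2 in DIO-VSG versus DIO-HFD, -0.218 to 0.127 for Hmox1 in DIO-LFD versus DIO-HFD, -0.0717 to 0.26 for Nqo1 in DIO-LFD versus DIO-HFD, -0.228 to 0.0138 for Gclm in DIO-VSG versus DIO-LFD, -0.042 to 0.0873 for Txnrd1 in DIO-VSG versus CON-LFD, -0.375 to 1.15 for Slc7a11 in DIO-LFD versus DIO-HFD, -0.0842 to 0.12 for Fth1 in DIO-HFD versus CON-LFD, -0.0952 to 0.0934 for Fth1 in DIO-LFD versus DIO-HFD, -0.0541 to 0.133 for Fth1 in DIO-LFD versus CON-LFD, -0.155 to 0.172 for Ftl1 in DIO-VSG versus CON-LFD.

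Whether replicate numbers pair the samples was not settled. For same-numbered libraries of 2 groups, correlations of the deviations from group means ranged from -0.609 to 0.534 (median 0.018, 9 of 24 above 0.1). Other pairs had a median of -0.004, and 7 of 16 libraries correlated best with their own number. Libraries also differ in cell content, so these correlations cannot exclude a pairing. With the replicate block, 1 gene in all was called for DIO-HFD versus CON-LFD and 0 in the other comparisons, and no call of a member changed. P values set a group difference against the spread between mice within groups, which limma moderates with that of all genes tested. The spread was pooled over all 4 groups of 4 mice except in fits of only 2 groups. In the main fit the SE of a gene was thus the same in every comparison, whatever the spread within the groups compared. The lowest value of a member was 33.9 normalized counts, or 32 reads (Slc7a11 in CON-LFD replicate 2), and the effect of depth on the members was not tested. Differences in lymphocyte, macrophage and endothelial content between libraries limit what the mRNA levels show of any 1 cell type.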
